A study of Saccharomyces cerevisiae with 24 samples.

Results

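This account compares how the same overexpressed genes behaved in 2 diploid strains of Saccharomyces cerevisiae grown in salt: the West African strain NCYC3290 and the laboratory strain BY4743. It rests on 12 of the 24 libraries of the series, 3 for each strain at generation 0 and 3 at generation 10, and the remaining 12 libraries came from the vineyard strain BC187 and the oak strain YPS128. Both hosts carried the MoBY 2.0 collection, in which each high-copy plasmid (2-micron origin) carries 1 S288C gene, its native flanks and a barcode, so the insert is the same in every host. The measure for a gene was its log2 change from generation 0 to generation 10 in NCYC3290 minus its log2 change in BY4743, and it was fitted for 4198 of the 4871 barcode entries of the count table.

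NCYC3290 is a wild isolate for which the labels give no marker mutation. BY4743 is homozygous for his3Δ1, leu2Δ0 and ura3Δ0 and heterozygous for lys2Δ0 and met15Δ0. All 12 samples, those of generation 0 included, carried the plasmid pool. Generation 0 is an aliquot of the thawed pool taken before growth in salt, and generation 10 is the pool after 10 generations at 30°C in rich YPD medium with 0.7 M NaCl and 200 mg/L of G418, which selects for the plasmid. No library of these strains grown without salt was analysed here, so a change holds the effect of the plasmid as well as that of the salt. The methods describe BY4743 as keeping more copies of this plasmid than wild strains do, which cannot be told apart from the other differences between the strains. Replicates are numbered in the labels and called biological, but whether each began from its own transformation is not given in the sources used here, so p-values measure the spread between these libraries.

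Sodium is toxic to yeast mainly inside the cell, where it displaces potassium. Cells respond by pumping sodium out, by raising potassium uptake through the Trk1 and Trk2 transporters, by calcium signalling through calcineurin and calmodulin, and by the HOG kinase cascade, which raises glycerol as a compatible solute. The kinases Hal5 and Sat4 sustain Trk1 and Trk2 at the cell surface, and Sis2 (also Hal3) inhibits the phosphatase Ppz1, which holds potassium uptake and sodium export back. In a pooled competition, a plasmid that helps its host rises in share and one that slows its host falls.

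The kinase plasmids with the most reads in salt carry their own upstream sequence, and short windows of it are shown. Windows are shown for these kinases alone, not for other leading genes such as SIS2, SFL1 and URA5. The 500 bases before each start codon were searched in the RefSeq S288C assembly R64 for the stress response element read by Msn2 and Msn4 (AGGGG, both strands) and the calcineurin-dependent response element read by Crz1 (GNGGCNCA, both strands). The matched letters are in capitals, each window reads 5′ to 3′ on the strand of its gene, and the distances count from the first base of the match to the start codon. HAL5 on chromosome X held 2 stress response elements, at 398 and 192 bases, and a calcineurin element at 196 bases that overlaps the second. CMK2 on chromosome XV held 1 at 155 bases, and SAT4 on chromosome III held 1 at 12 bases.
HAL5, chrX:109842-109871, minus strand: acgaaatttcaaCCCCTgtatagttactac
HAL5, chrX:109636-109665, minus strand: tttttacgtgagCCCCTtggtataaaccaa
HAL5, chrX:109639-109668, minus strand, calcineurin element: ttttttttacgTGAGCCCCttggtataaac
CMK2, chrXV:296258-296287, minus strand: ttagaaccctgcCCCCTttgaagccaccca
SAT4, chrIII:128440-128469, plus strand: tattttatttcgacattaCCCCTcaaatat
These letters are common upstream of yeast genes. A stress response element was present in 34.4% of the 4192 windows of genes tested, in 31.5% of those of genes higher in NCYC3290 and in 34.8% of those of genes lower there. The calcineurin element was present in 7.78% of all windows, in 5.56% of those of higher genes and in 7.39% of those of lower genes.

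The libraries differed far more at the end than at the start. The generation 0 pools of the 2 strains were close, with 0.262% of genes over 2-fold apart and a correlation of log2 levels across genes of 0.989 (Pearson, over 4198 genes that share their libraries). Totals were 4615027 to 30699608 reads per library. The 10 most abundant barcodes took 1.04% to 1.34% of reads in the BY4743 libraries and 1.08% to 1.15% in those of NCYC3290 at generation 0, but 89.8% to 95.4% in NCYC3290 at generation 10. The median barcode therefore had 14 to 48 reads in those 3 libraries, against 2116 to 3445 in BY4743 at generation 10. Normalised reads below are reads per 1000000 of a total from which 25 dominant genes were left out, so a dominant barcode can exceed that total. One generation 0 library of NCYC3290, replicate 2, already held more of the dominant barcodes HAL5, SIS2 and SAT4 than its companions, and to a smaller degree of URA5, as given with those genes.

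The plasmids spread further apart in NCYC3290 than in BY4743. A score was computed for each gene and each generation 10 library, as log2 of its normalised reads over the mean of the generation 0 libraries of its strain, with 1 normalised read added to both. The SD of scores over genes was 2.49, 2.43 and 2.65 in the NCYC3290 libraries and 0.81, 0.71 and 0.69 in those of BY4743. The 2 sets did not overlap, and the exact two-sided permutation test gave p = 0.1, the smallest that 3 libraries against 3 allow. The median score was -3.61, -2.40 and -2.0 in NCYC3290 and -0.02, 0.01 and 0.02 in BY4743 (exact permutation p = 0.1). Of the 4198 genes, 2474 (58.9%) had scores that did not overlap between the strains. Across the 4198 genes the mean scores of the 2 strains had a Spearman correlation of 0.27, a description in which genes of 1 strain share libraries.

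**Figure D1:**
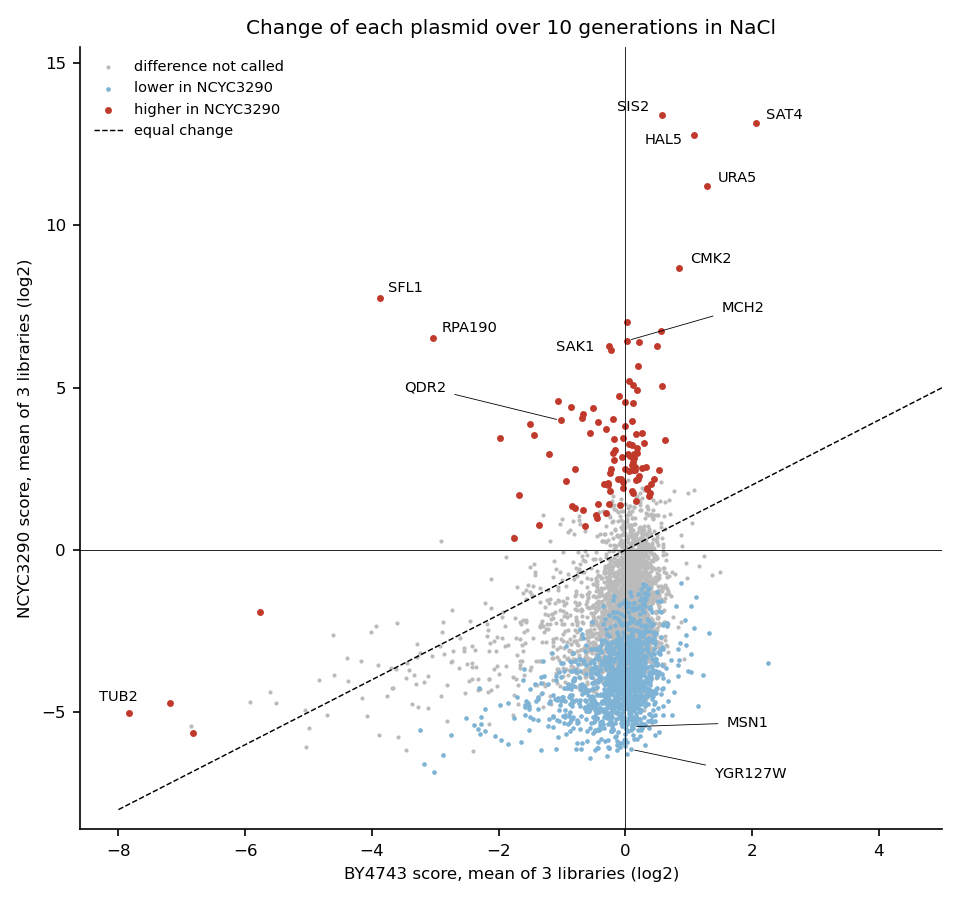
Each point is a gene, with its mean score over 3 BY4743 libraries on the horizontal axis and over 3 NCYC3290 libraries on the vertical axis (both log2, generation 10 over generation 0); colours mark the called difference. Scores spread less along the BY4743 axis (SD 0.69 to 0.81) than along that of NCYC3290 (2.43 to 2.65), and the SIS2, HAL5, SAT4 and URA5 plasmids stand above a score of 10 in NCYC3290.

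Of the 4198 genes, 1396 (33.3%) had a called difference between the strains (edgeR quasi-likelihood test, Benjamini-Hochberg false discovery rate, FDR, under 0.05), 108 (2.57%) higher and 1288 (30.7%) lower in NCYC3290. The 2 directions do not stand on the same footing. The median difference over all genes was -1.48, and each gene was tested against 0, so a gene that only followed this shift could be called lower. Under median-ratio scaling, which moves that median to 0.86, the calls were 357 higher and 181 lower. All 108 higher genes stayed higher under that scaling and under TMM scaling, where the calls were 316 higher and 550 lower. Scaling by the total of all reads gave 21 higher and 3786 lower, so the share of calls that were higher was 7.74% as reported, 36.5% with TMM, 66.4% with median-ratio and 0.552% with all reads. The medians of gene lists below are to be read against -1.48 and their counts against 30.7% lower and 2.57% higher. The spread between replicates was also unequal, with a common biological coefficient of variation of 1.22 in NCYC3290 at generation 10 against 0.182 in BY4743 at generation 10, 0.0678 in NCYC3290 at generation 0 and 0.0384 in BY4743 at generation 0. The edgeR fit assumes 1 dispersion per gene for all groups. When the spread was estimated per group (voom with group weights, limma), 86 (2.05%) were higher and 15 (0.357%) lower, 84 of the former and 7 of the latter among the genes called by edgeR. Of the 78 genes with a called difference that are named below and were followed across settings, 33 were higher and 45 lower. All 33 stayed higher with TMM and median-ratio scaling, 30 with voom and 15 with the total of all reads. Of the 45, all stayed lower with the total of all reads, 26 with TMM, 12 with median-ratio scaling and 2 with voom. MYO2 and 1 barcode of FLO8, also named below as higher, were not among these 78 and were not called by voom. A gene is called higher or lower below by the edgeR test, and the FDR from voom is given for most genes that voom did not call. On simulated data with this unequal spread, false calls by edgeR exceeded the FDR it was set to. An error after ± is the size of the difference over the square root of the edgeR F statistic. It rests on the spread pooled over groups. Voom errors were wider for VAN1 (3.01 against 0.57) and TRS31 (3.32 against 0.55), and narrower for MCH2 (0.16 against 0.42).

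**Figure D2:**
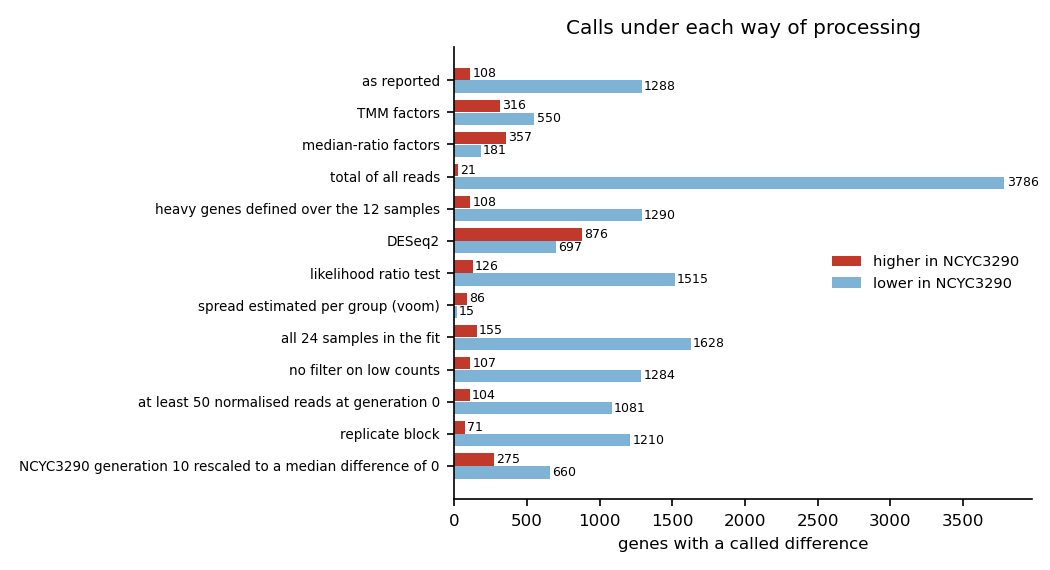
Bars give the number of genes called higher (red) or lower (blue) in NCYC3290 than in BY4743 at an FDR under 0.05, for the analysis as reported and for each other scaling, test, filter or sample choice. The count of lower genes runs from 15 to 3786, and that of higher genes from 21 to 876.

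Genes of potassium uptake were among those with the largest differences. Of 8 tested members of a list of Trk transporter kinases, phosphatases and phosphatase inhibitors, 3 were higher in NCYC3290 and 1 lower, with a median difference of 0.93, which is 2.41 above that of all genes. The median change of the list was negative in both strains, -1.69 in NCYC3290 and -0.81 in BY4743. Fitted alone, NCYC3290 had 3 members that rose and 1 that fell, and BY4743 had 3 that rose and 4 that fell. The HAL5 plasmid stood at 939, 827 and 807 normalised reads in BY4743 at generation 0 and at 1646, 2048 and 1797 at generation 10. In NCYC3290 it stood at 883, 1873 and 826 and then at 13913385, 5646745 and 7413054. It rose in every library of both strains, by 1.09 on the log2 scale in BY4743 (FDR = 0.00013) and by 12.88 in NCYC3290 (FDR = 0.0051), and the difference was 11.78 ± 0.71 (SE, FDR = 8.1e-06). HAL5 alone took 60.3%, 61.3% and 54.5% of all reads of the NCYC3290 libraries at generation 10.

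SIS2 and SAT4 also rose in both strains and by far more in NCYC3290. SIS2 stood at 141, 124 and 117 normalised reads in BY4743 at generation 0 and at 154, 227 and 202 at generation 10, against 115, 508 and 89.7 and then 5553060, 878243 and 3447207 in NCYC3290. The difference was 13.15 ± 1.26 (FDR = 5.8e-05), and SIS2 took 24.1%, 9.54% and 25.3% of all reads of the NCYC3290 libraries at generation 10. SAT4 began near the bottom of the pool, at 23.0, 14.2 and 22.5 in BY4743 and 21.2, 59.7 and 24.8 in NCYC3290. It reached 37.5, 133 and 127 in BY4743 and 438536, 618091 and 130201 in NCYC3290, a difference of 11.14 ± 1.11 (FDR = 6.8e-05). In these 3 genes the second NCYC3290 library at generation 0 was above the other 2. Without that library the differences were 12.27 for HAL5, 14.37 for SIS2 and 11.75 for SAT4. PPZ2, which encodes a phosphatase of the Ppz1 kind, went the other way: it fell by 2.94 on the log2 scale in BY4743 (FDR = 4.7e-05) and to 0 to 3 reads in NCYC3290, at least 35.4-fold lower than at the start, with a called difference of -4.17 (FDR = 0.0063, voom FDR = 0.34). That call was lost with TMM and median-ratio scaling, and leaving out 1 library moved the value between -3.25 and -10.64. TRK1 itself had 0 reads in all 12 libraries.

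**Figure D3:**
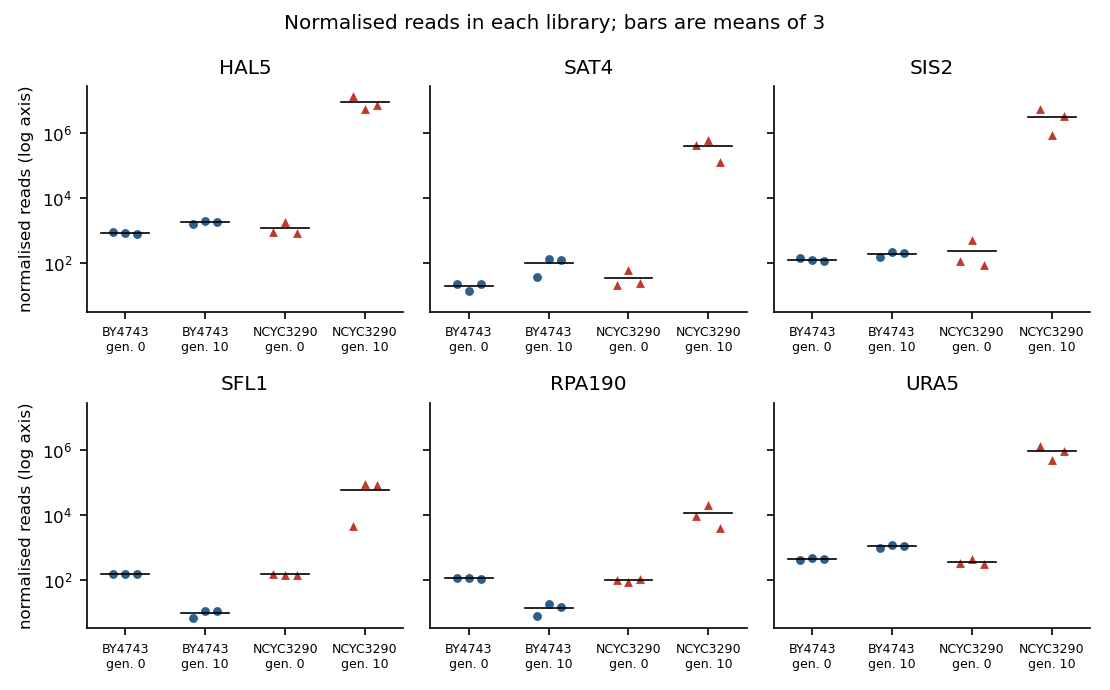
Normalised reads of 6 plasmids (log axis) in each library, with blue circles for BY4743, red triangles for NCYC3290 and bars for the mean of 3 libraries. HAL5, SAT4, SIS2 and URA5 lie higher at generation 10 than at generation 0 in the mean of both strains, and SFL1 and RPA190 go down in BY4743 and up in NCYC3290.

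Calcium signalling and ion transport each contributed 1 higher gene. Of 15 tested members of a calcium, calcineurin and calmodulin list, CMK2 was higher and 2 were lower, with a median difference of -1.27. CMK2, a calmodulin-dependent protein kinase, went from 390, 381 and 385 to 675, 769 and 652 normalised reads in BY4743. In NCYC3290 it went from 387, 405 and 375 to 315474, 82660 and 163891, and the difference was 8.05 ± 0.67 (FDR = 5.4e-05). CRZ1, the transcription factor that calcineurin activates, rose in each BY4743 library with scores of 1.13, 1.33 and 1.28. Its NCYC3290 scores were -1.62, -1.37 and 2.46, which surround them, and the difference of -0.19 ± 1.20 was not called (FDR = 0.93). CSG2, which takes part in sphingolipid mannosylation and calcium homeostasis, ended at 0 to 1 reads in NCYC3290, at least 17.1-fold below its start, and its difference was called lower (FDR = 0.00025, voom FDR = 0.22).

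The neighbouring transporter genes QDR2 and QDR1 both fell in BY4743, with changes of -1 (FDR = 0.004) and -0.73 (FDR = 0.0066) in its own fit. In NCYC3290 only QDR2 had a called change. QDR2, a plasma membrane multidrug transporter, went from 191, 178 and 176 to 68.1, 91.8 and 113 normalised reads in BY4743 and from 211, 241 and 162 to 4160, 2857 and 2938 in NCYC3290. It fell in one strain and rose in the other, with a difference of 5.02 ± 0.48 (FDR = 5.8e-05). QDR1, at 134417 to 136108 on chromosome IX just beyond QDR2 at 132244 to 133872, scored 0.25, -0.13 and -5.02 in NCYC3290 and -0.48, -0.93 and -0.78 in BY4743. Its difference of 0.22 ± 1.19 was not called (FDR = 0.91), with an error wide enough to cover a change of either sign. QDR2 was the only higher gene of 9 tested members of a sodium, potassium and proton transport list, and NHX1, the endosomal sodium/proton exchanger, was the only lower one (-4.09 ± 1.33, FDR = 0.035, voom FDR = 0.46).

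Fitted alone, NCYC3290 had 79 genes that rose (1.89% of 4171) and 1087 that fell (26.1%), and BY4743 had 763 that rose (18.2% of 4186) and 817 that fell (19.5%). Of the 134 genes called in opposite directions, 18 rose in NCYC3290 and fell in BY4743. All 18 had a called difference in both tests. SFL1, a repressor of flocculation genes and of pseudohyphal growth, had the largest difference among them. It went from 152, 146 and 146 to 6.52, 11 and 10.5 normalised reads in BY4743 and from 154, 143 and 142 to 4614, 86280 and 80788 in NCYC3290. The first NCYC3290 library was well below the other 2, yet all 3 lay above every other value, and the difference was 12.59 ± 1.30 (FDR = 7.3e-05). RPA190, the largest subunit of RNA polymerase I, went from 109, 112 and 107 to 7.36, 17.6 and 14.8 in BY4743 and from 99.1, 86.0 and 102 to 8884, 20024 and 3992 in NCYC3290, a difference of 9.89 ± 0.87 (FDR = 5.4e-05).

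The same crossing was seen at smaller size for genes of secretion, translation and kinase signalling. SEC3, an exocyst subunit that marks sites of polarised secretion, scored 3.90, 4.04 and 2.42 in NCYC3290 and -2.19, -1.92 and -1.84 in BY4743 (difference 5.61 ± 0.60, FDR = 8.1e-05). SOK1, whose overexpression is known to suppress loss of protein kinase A, scored 2.47, 4.90 and 4.25 against -1.59, -1.64 and -1.28 (5.70 ± 0.73, FDR = 0.00018). For TIF5, translation initiation factor eIF5, 1 of the NCYC3290 libraries did not rise: the scores were 5.70, 5.20 and -0.29 against -1.47, -1.11 and -1.73 (6.37 ± 1.38, FDR = 0.0039). BMH2, a 14-3-3 protein, and CLN1, a G1 cyclin, also crossed, with changes of 4.61 and 3.54 in NCYC3290 and -0.51 and -1.19 in BY4743. In the other direction, 116 genes fell in NCYC3290 and rose in BY4743. EdgeR called the difference lower for all 116, but voom for only 4. VAN1, a mannosyltransferase of the Golgi, had the largest smaller-of-the-pair change among them, with scores of -2.70, -2.32 and -2.67 in NCYC3290 and 0.53, 1.75 and 1.70 in BY4743 (difference -4.08 ± 0.57, FDR = 0.00027, voom FDR = 0.31).

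Other leading genes rose in NCYC3290 from an ordinary starting level. URA5, the main orotate phosphoribosyltransferase of pyrimidine synthesis, rose in both strains, from 405, 454 and 436 to 959, 1132 and 1086 normalised reads in BY4743 and from 322, 446 and 301 to 1291185, 490942 and 949961 in NCYC3290. The difference was 10.02 ± 0.60 (FDR = 8.1e-06). The second NCYC3290 library at generation 0 was the highest of the strain here too, and leaving out 1 library moved the URA5 difference between 9.69 and 10.32. SOK2, a transcription factor of the protein kinase A pathway, scored 7.92, 5.62 and 7.55 in NCYC3290 and stayed between -0.47 and 0.36 in BY4743 (7.28 ± 0.78, FDR = 8.1e-05). SAK1, the main kinase that activates Snf1, varied widely between NCYC3290 libraries, at 3.17, 8.89 and 6.76, above -0.31, -0.31 and -0.17 in BY4743 (7.90 ± 1.4, FDR = 0.0011). MCH2, related to monocarboxylate permeases, rose evenly, at 6.65, 6.20 and 6.5 against 0.08, -0.05 and 0.07 (6.43 ± 0.42, FDR = 1.1e-05). ATO2, a membrane protein of acetate and ammonium transport, scored 5.99, 5.08 and 7.42 against -0.01, -0.21 and -0.47 (6.71 ± 0.76, FDR = 9.8e-05). The changes of MCH2 and ATO2 in BY4743 were not called (FDR = 0.64 and 0.18). Over all genes, 42 rose in NCYC3290 with no call in BY4743, and the difference was called higher for all 42 by edgeR and for 41 by voom.

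**Figure D4:**
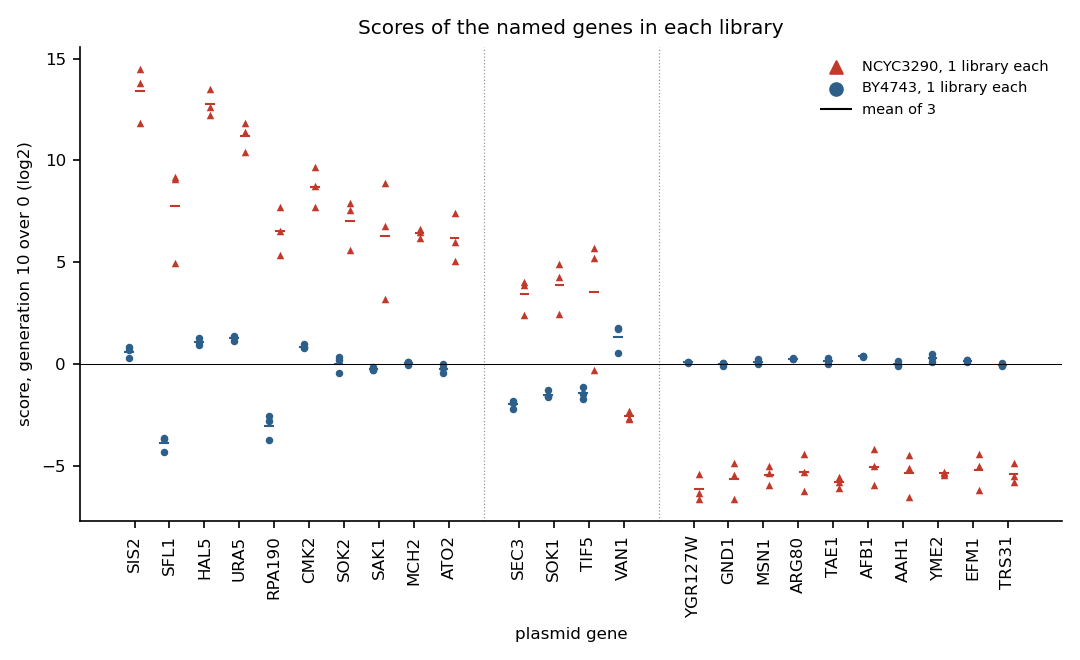
Scores (log2, generation 10 over generation 0) in each library for the 10 largest positive differences, 4 further genes with opposite directions and the 10 largest negative differences, with red triangles for NCYC3290, blue circles for BY4743 and short bars for means of 3. Scores that do not overlap between the strains were a condition for choosing the 10 positive and 10 negative genes, and the 4 further genes do not overlap either. The TIF5 plasmid fell slightly in 1 of its 3 NCYC3290 libraries.

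Genes that moved the same way in both strains could still differ in size. In the separate fits, 285 genes fell in both strains and 19 rose in both, and 247 of these 304 had a called difference by edgeR. Of the 285, edgeR called 227 lower in NCYC3290, the direction of the median difference of all genes, and 2 higher, while voom called 0. Of the 19, edgeR called 18 higher and voom 16. POL30, the sliding clamp PCNA of DNA replication, rose in both, with scores of 1.95, 1.64 and 2.04 in NCYC3290 and 0.32, 0.34 and 0.36 in BY4743 (difference 1.55 ± 0.38, FDR = 0.0080). GCD10, a subunit of the tRNA m1A methyltransferase, scored 2.59, 2.01 and 2.77 against 0.59, 0.55 and 0.46 (1.96 ± 0.42, FDR = 0.0036). These 2 rises were larger in NCYC3290, but with the total of all reads the differences were -2.21 for POL30 and -1.84 for GCD10. SAR1, the GTPase of COPII vesicle budding, fell in both, at -2.53, -2.10 and -2.48 against -0.22, -0.33 and -0.18 (-2.12 ± 0.41, FDR = 0.0020, voom FDR = 0.085), and the difference was 0.37 with median-ratio scaling. SWT1, an endoribonuclease of mRNA surveillance, fell in both as well, and its difference of -1.02 ± 0.41 was not called (FDR = 0.078).

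Some cytoskeletal plasmids had a lower change in BY4743 than in NCYC3290. TUB2, beta-tubulin, fell from 6831, 7352 and 5104 reads to 5, 10 and 20 reads in BY4743 and from 7156, 9313 and 4465 to 17, 10 and 10 in NCYC3290, where libraries held fewer reads outside the dominant barcodes. After normalisation the change was -8.92 in BY4743 and -5.01 in NCYC3290, and the difference of 3.94 ± 0.70 was called (FDR = 0.0012, voom FDR = 0.23), but was 0.23 and not called with the total of all reads. PFY1, profilin, fell in BY4743 alone as far as each fit called it (-1.77, FDR = 1.1e-05, against 0.59, FDR = 0.57, in NCYC3290) and had a difference of 2.36 ± 0.63 (FDR = 0.013, voom FDR = 0.071, and -1.23 with the total of all reads). These belong to a cytoskeleton list of which 4 of 15 tested members were higher and 1 lower. TPM1, the main tropomyosin, rose in NCYC3290, with scores of 5.80, 3.64 and 5.85 against 0.11, 0.08 and 0.16 (5.27 ± 0.70, FDR = 0.00021). The fourth, the myosin gene MYO2, had at most 2 reads in BY4743 and at most 5 in NCYC3290 at generation 10, so no fold is given. TUB3, the minor alpha-tubulin, was the lower one (-2.99 ± 0.77, FDR = 0.010, voom FDR = 0.20).

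Among called genes with at least 50 normalised reads at generation 0 in both strains and scores that did not overlap, ranked with counts under 3 reads raised to 3, the 10 largest negative differences had fitted values of -5.40 to -6.78. Genes outside these limits had larger fitted values, which rest on counts near 0. The 10 were AAH1 (adenine deaminase), ARG80 (a regulator of arginine genes), GND1 (6-phosphogluconate dehydrogenase), EFM1 and TAE1 (methyltransferases of the translation machinery), AFB1 (the a-factor barrier of alpha cells), MSN1 (a transcription factor), TRS31 (a subunit of the TRAPP complexes), YME2 (a mitochondrial inner membrane protein) and YGR127W, to which no role is given here. YGR127W held 5217, 7092 and 3385 reads in NCYC3290 at generation 0 and 8, 1 and 5 reads at generation 10, while BY4743 went from 4683, 4997 and 3934 to 3675, 3534 and 5652. MSN1 went from 3875, 4938 and 2813 reads to 6, 3 and 5 in NCYC3290 and from 3980, 4164 and 3145 to 2768, 3382 and 4702 in BY4743. All 10 held at most 16 reads in each NCYC3290 library at generation 10, with scores between -0.12 and 0.50 in BY4743, and their edgeR FDRs were at most 0.00023. Under voom their FDRs were 0.097 to 0.21. TAE1 and TRS31 had at most 3 reads in each NCYC3290 library at generation 10 and were there at least 42.7-fold and 44.6-fold lower than at the start. Over all genes, 221 were at or under 3 reads in every NCYC3290 library at generation 10 against 9 in BY4743, and 171 of the 221 were called lower.

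Few lower genes passed with the spread of each group estimated on its own. Among the 7 called by both tests were SGN1, an RNA-binding protein linked to translation, and OAZ1, the antizyme that controls polyamine synthesis, both named after their values were seen. SGN1 scored 0.54, 0.44 and 0.53 in BY4743 and -3.95, -3.21 and -5.59 in NCYC3290 (difference -4.55 ± 0.72, FDR = 0.00053, voom FDR = 0.042). OAZ1, whose difference turned to 0.18 with median-ratio scaling, went from 468, 473 and 466 to 599, 590 and 580 in BY4743 and from 489, 467 and 471 to 146, 93.8 and 61.5 in NCYC3290 (-2.58 ± 0.49, FDR = 0.0019, voom FDR = 0.036).

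Of 16 tested HOG sensors, kinases and phosphatases, 4 were lower (25%, against 30.7% of all genes) and 1 higher, so the list was not lower more often than genes at large, and the list median of -0.64 was 0.85 above that of all genes. HOG1, the kinase that ends the cascade, kept its level in BY4743, from 321, 313 and 316 to 293, 315 and 310 normalised reads. In NCYC3290 it went from 308, 289 and 297 to 13.5, 12 and 20.9 (difference -4.20 ± 0.47, FDR = 9.8e-05, voom FDR = 0.097). SSK2, a kinase of the Sln1 branch, ended at 0 to 1 reads in NCYC3290, at least 5.37-fold below its start (voom FDR = 0.65). STE50, an adaptor of the Sho1 branch, was lower by -3.67 ± 0.70 (FDR = 0.0017, voom FDR = 0.26), and OPY2, its membrane anchor, by -4.52 ± 1.41 (FDR = 0.028, voom FDR = 0.11). With median-ratio scaling 0 of the list were lower and 3 higher. The higher gene was PTP2, the phosphatase that inactivates Hog1, with scores of 2.22, 0.99 and 2.27 in NCYC3290 and -0.11, 0.16 and 0.26 in BY4743 (1.82 ± 0.51, FDR = 0.017, and -2.05 with the total of all reads).

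Of 10 tested osmostress transcription factors, 6 were lower and 0 higher by edgeR (60%, against 30.7% lower of all genes), and 0 were called by voom. The lower count was 3 with TMM and 2 with median-ratio scaling, and the calls of HOT1, MSN2 and YAP6 were lost with both. The list median was -3.06, and -2.60 with genes at the read floor set to their bound. SKO1, the repressor and activator that Hog1 phosphorylates, scored -4.44, -3.37 and -4.28 in NCYC3290 against -0.59, -0.07 and -0.21 (-3.83 ± 0.55, FDR = 0.00031, voom FDR = 0.15). MSN2, the general stress activator, fell in both strains, with changes of -5.45 in NCYC3290 and -2.23 in BY4743 (difference -3.26 ± 0.91, FDR = 0.016, voom FDR = 0.27). HOT1, which activates glycerol genes with Hog1, also fell in both, with changes of -4.09 and -1.30 (-2.86 ± 0.73, FDR = 0.010, voom FDR = 0.43). TUP1, the corepressor that works with Sko1, had 0 reads in each NCYC3290 library at generation 10 from 250, 391 and 199 at generation 0, at least 4.90-fold lower (voom FDR = 0.30). MSN1 and YAP6 were the other lower members. Of 13 glycerol genes 4 were lower (30.8%, about the share of all genes) and 0 higher by edgeR, with 2 lower under TMM and 0 under median-ratio scaling. Among the 4 were GPP1, the glycerol phosphatase (-3.23 ± 0.55, FDR = 0.00080, voom FDR = 0.19), and GUP2, linked to glycerol uptake (-4.35 ± 0.81, FDR = 0.0015, voom FDR = 0.13). ASK10, a regulator of the Fps1 glycerol channel, and GUT2, which oxidises glycerol phosphate, had differences of -3.91 and -4.69 (voom FDR = 0.22 and 0.12).

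Of casein kinase 2, the catalytic subunits CKA1 and CKA2 were both higher and the regulatory subunits CKB1 and CKB2 were not called. CKA1 went from 283, 289 and 283 to 337, 335 and 387 normalised reads in BY4743 and from 276, 270 and 273 to 3728, 2713 and 1870 in NCYC3290 (3.03 ± 0.45, FDR = 0.00036). CKA2 went from 317, 308 and 315 to 311, 347 and 314 and from 385, 390 and 414 to 3740, 2314 and 3532 (2.96 ± 0.41, FDR = 0.00026). With the total of all reads the differences were -0.75 for CKA1 and -0.85 for CKA2. CKB1 scored 0.40, -0.35 and -6.55 in NCYC3290, so its difference had an error of 1.39 and the subunits were not shown to differ.

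Cyclins were called in both directions. CLN3, the most upstream G1 cyclin, scored 3.62, 4.13 and 2.55 in NCYC3290 and -0.08, -0.24 and -0.19 in BY4743 (3.74 ± 0.55, FDR = 0.00035). CLN1 scored 3.91, 0.80 and 4.17 against -1.32, -1.06 and -1.21 (4.73 ± 0.90, FDR = 0.0018). The S and M phase cyclins CLB4 (-4.30 ± 0.70, FDR = 0.00065, voom FDR = 0.23) and CLB6 (-3.41 ± 0.65, FDR = 0.0018, voom FDR = 0.23) were lower. So were CLB3, which ended at 1 to 2 reads in NCYC3290 and at least 23.9-fold below its start (voom FDR = 0.29), and SIC1, the inhibitor of Clb kinase (-4.08 ± 0.74, FDR = 0.0013, voom FDR = 0.095). That made 2 higher and 4 lower (36.4%) of 11 tested members, with 2 lower under TMM and 1 under median-ratio scaling. With the total of all reads the differences of CLN3 (0.13) and CLN1 (0.75) were not called.

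Chromatin factors and lipid genes held calls in both directions. SPT16, the larger subunit of the histone chaperone FACT, was higher with scores of 4.09, 4.93 and 3.09 in NCYC3290 against -0.32, -0.18 and -0.09 (4.43 ± 0.60, FDR = 0.00023), while its partner POB3 was lower (-3.79 ± 0.84, FDR = 0.0047, voom FDR = 0.36). NHP6A, an HMG-box protein that works with FACT, was higher with 2.73, 1.69 and 1.98 against -0.98, -1.08 and -0.77 (3.15 ± 0.49, FDR = 0.00050, and -0.73 with the total of all reads). Of 14 members of that list 2 were higher and 4 lower (28.6%), and with median-ratio scaling 0 were lower. Among 13 genes of phospholipid synthesis and its control, DGK1, the diacylglycerol kinase of the nuclear membrane, scored 2.91, 4.42 and 4.59 against 0.07, 0.19 and 0.07 (4.04 ± 0.57, FDR = 0.00030). CHO1, phosphatidylserine synthase, scored 4.49, 2.15 and 4.19 against -0.70, -0.60 and -0.38 (4.48 ± 0.71, FDR = 0.00055). They were the 2 higher members, beside 2 lower ones. With the total of all reads the differences of SPT16 (0.86), DGK1 (0.47) and CHO1 (0.48) were not called.

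Of 18 tested enzymes of protein mannosylation, 2 were higher and 4 lower (22.2%). MNN1, the alpha-1,3-mannosyltransferase of the Golgi, went from 238, 260 and 246 to 2378, 1648 and 1966 normalised reads in NCYC3290 and stayed between 200 and 279 in BY4743 (3.19 ± 0.42, FDR = 0.00019). KTR6, which adds mannosylphosphate, scored 3.70, 2.52 and 3.58 against 0.27, 0.05 and -0.15 (3.29 ± 0.49, FDR = 0.00040). With the total of all reads these differences were -0.61 for MNN1 and -0.59 for KTR6. MNN5, an alpha-1,2-mannosyltransferase, was lower by -5.55 ± 0.58 (FDR = 7.5e-05, voom FDR = 0.13), and KTR5 ended at least 16.4-fold below its start in NCYC3290 (voom FDR = 0.40).

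Ras and protein kinase A genes had 5 of 12 tested members lower (41.7%, against 30.7% of all genes) and 0 higher by edgeR, and 0 called by voom. With TMM scaling 1 was lower and 2 higher, and with median-ratio scaling 0 were lower and 2 higher. SOK2 (7.28) and SOK1 (5.70), linked to protein kinase A and given above as higher, were not members of this list. RAS1 scored -4.17, -4.54 and -4.83 in NCYC3290 against 0.37, 0.18 and 0.22 (-4.86 ± 0.47, FDR = 5.8e-05, voom FDR = 0.097). CDC25, the exchange factor of Ras, and CYR1, adenylate cyclase, fell in both strains and further in NCYC3290, with differences of -3.67 ± 0.88 (FDR = 0.0073, voom FDR = 0.66) and -3.50 ± 0.55 (FDR = 0.00050, voom FDR = 0.36). YAK1, a kinase that opposes protein kinase A, was lower as well (-3.58 ± 0.84, FDR = 0.0065, voom FDR = 0.25). In a list of flocculins and their regulators, FLO10 ended at least 8.78-fold below its start in NCYC3290 (voom FDR = 0.47), and MGA1, an activator of filamentous growth, was lower by -5.59 ± 0.82 (FDR = 0.00035, voom FDR = 0.13). The higher entry of that list was 1 of the barcodes of FLO8, which had 0 to 18 reads in every generation 0 library and is given no fold. The other FLO8 barcode had a difference of 0.09 and was not called (FDR = 0.96). SFL1, the repressor of flocculation genes given above as higher, was not a member of that list.

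Ribosomal protein genes were the largest list, with 44 of 117 tested members lower (37.6%, against 30.7% of all genes) and 0 higher by edgeR and 1 lower by voom. The lower count was 19 with TMM and 9 with median-ratio scaling. Their median difference of -2.06 was 0.57 below that of all genes, and in BY4743 43 of them fell and 15 rose. Of 13 vacuolar proton ATPase genes 5 were lower (38.5%), of 13 cell wall integrity genes 3 (23.1%), of 18 chaperones 4 (22.2%) and of 3 aquaporins 2, with 0 higher in each by edgeR and 0 called in either direction by voom. Among 10 genes of tRNA methylation and initiation control 1 was higher and 2 lower, and among 4 genes of pyrimidine synthesis 2 were higher and 1 lower. Of the 5 genes that BY4743 lacks or has lost 1 of its copies of, 1 was tested, and its difference of -1.27 was not called.

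**Figure D5:**
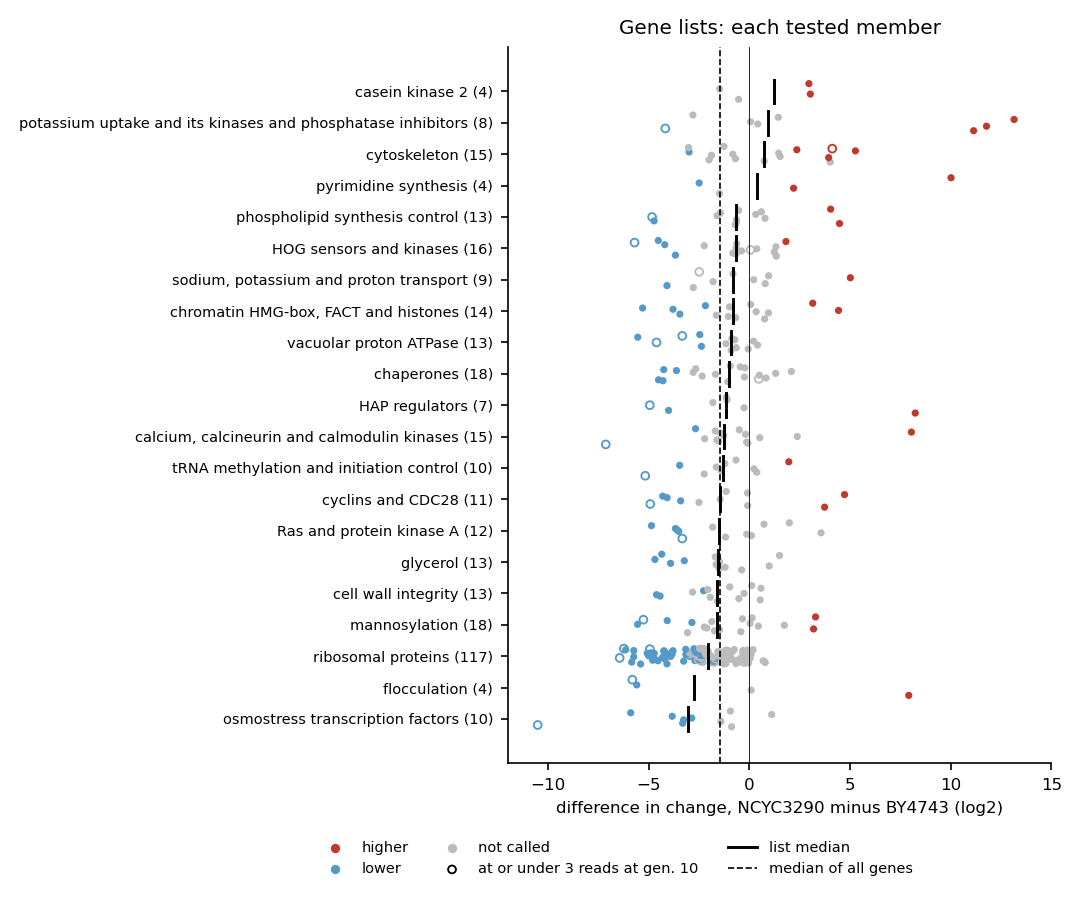
Each point is a tested gene of a list of 4 or more, the genes named by the study left out, at its difference NCYC3290 minus BY4743 (log2), red where called higher and blue where called lower; thick bars are list medians and the dashed line is the median of all genes at -1.48. Open points had at most 3 reads at generation 10 in every library of a strain and their fitted value is no measure of size; of the lists drawn, casein kinase 2 and potassium uptake have the highest medians and the osmostress factors the lowest.

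Replicates of NCYC3290 did not rank genes alike. The Spearman correlation of scores across genes between pairs of its libraries was 0.24 to 0.29, against 0.66 to 0.81 in BY4743. The median range of the 3 scores of a gene was 3.19 in NCYC3290 and 0.30 in BY4743, and it exceeded 5 for 855 genes in the former and 0 in the latter. Some plasmids took off in 1 library alone: 35 genes scored above 3 in 1 NCYC3290 library and below 0 in the other 2, which happened for 0 genes in BY4743. HAP3, a subunit of the respiratory activator complex and named after its values were seen, had 361827, 22 and 1437 reads in the 3 NCYC3290 libraries at generation 10. It was called higher at 8.24 ± 2.74 (FDR = 0.038, voom FDR = 0.12), and without the first of those libraries the difference was 0.44 (FDR = 0.75). SEY1, an endoplasmic reticulum fusion protein also named after its values were seen, had 150, 100187 and 198 reads and was not called (FDR = 0.051). The 40 genes tested with 2 barcode entries gave a further check, since both carry the same gene. The 2 differences of such a gene lay a median of 2.47 apart on the log2 scale, a gap of 2.04 in the NCYC3290 change and 0.21 in the BY4743 change. Both entries were called in the same direction for 6 genes, in opposite directions for 0, and only 1 entry was called for 22.

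The other 12 libraries gave the difference of another pair of strains, which shares no sample with these. The study found YPS128, like NCYC3290, more sensitive to salt than BC187 and BY4743. Both strains of this second pair are wild, so it does not hold the difference in plasmid copies named above for BY4743. There the change in YPS128 minus that in BC187 was higher for 218 (5.20%) and lower for 431 (10.3%) of 4194 genes, with a median of -0.37. Of the 108 genes higher in NCYC3290 than in BY4743, 31 were also higher in YPS128 than in BC187, 28.7% of the former list and 14.2% of the latter, and 4 were lower. Of the 1285 lower genes tested in both pairs, 161 were also lower there, 12.5% of the former list and 37.4% of the latter, and 41 were higher. HAL5 (8.44 ± 1.09, FDR = 0.00064), SAT4 (7.68 ± 1.14, FDR = 0.0013) and CMK2 (6.33 ± 0.55, FDR = 4.6e-05) were among the genes higher in both pairs. SIS2 was higher in both as well, but by 3.31 ± 0.47 (FDR = 0.0011) in the second pair. URA5 was not called there (-1.26 ± 0.44, FDR = 0.075), nor was SFL1 (-0.31 ± 0.67, FDR = 0.78) or RPA190 (1.57 ± 0.72, FDR = 0.16). URA5 rose in both strains of that pair, by 2.82 in YPS128 and by 4.08 in BC187. SAK1 and BMH2 were higher in NCYC3290 than in BY4743 and lower in YPS128 than in BC187, by -1.98 ± 0.39 (FDR = 0.0066) and -2.97 ± 0.79 (FDR = 0.028). The test of the difference between the 2 pairs, in 1 fit of all 24 libraries, called 956 of 4215 genes.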

How the data were processed

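The authors recovered plasmids from each aliquot, amplified the barcodes with indexed primers and sequenced them as single-end reads. The values deposited are raw counts of reads for every barcode, in whole numbers and not normalised. How reads were assigned to barcodes is not given in the sources used here. There were no molecular identifiers, so limits set from reads cover counting error only. The table has 4871 entries for 4817 genes (some have more than 1 barcode), and 591 entries had 0 reads in the 12 libraries. Symbols and positions came from RefSeq R64, in which 4811 names matched, since the table has no coordinates.

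Following the study's methods, genes above 50000 reads in any library of the series (25) were left out of the library size, though not out of the tests. Genes were kept by filterByExpr (minimum count 10). The deposited counts of the 12 libraries were fitted with edgeR 4.0.16 (R 4.3.3) as 4 group means, and the strain-by-generation contrast was tested by quasi-likelihood F-test with Benjamini-Hochberg adjustment over all genes tested, called at FDR under 0.05. Each strain was also fitted alone (6 libraries). Because the groups differed in spread, limma 3.58.1 (voom with weights per group) was run beside it. DESeq2 1.42.0 and the other scalings, filters and sample choices are described with their effects. Fold limits for lost genes used a floor of 3 reads per library. The procedure was tested on simulated data with the unequal spread of these groups, in which few genes were changed. There edgeR called more unchanged genes than it recovered changed ones, so its false calls exceeded the FDR it was set to. Voom called none of the unchanged genes but recovered fewer of the changed ones. 0 libraries held identical counts, and 0 columns lacked a sample.

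Genes named singly were the 10 largest positive and 10 largest negative differences among called genes whose scores did not overlap and which had at least 50 normalised reads at generation 0 (ranked with counts under 3 raised to 3), the 6 called in opposite directions with the largest smaller change, 4 with the same direction and the smallest error, genes that the study names, and members of gene lists. The genes, lists and comparison were chosen with earlier results of these data known, and the lists include themes the study drew from these samples, so their counts are not independent evidence.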

Additional observations from a re-analysis of the deposited data

Results flagged for a closer look

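The difference between NCYC3290 and BY4743 was tested against that between YPS128 and BC187 in 1 edgeR fit of all 24 libraries (FDR under 0.05). It differed for 22.7% of the 4215 genes tested and for 56 of the 81 genes that were followed across settings, most of which had been chosen for a called difference in the first pair. Values are given for 12 of them, picked with their values known, of which 10 passed. The first difference exceeded the second by 12.91 ± 1.34 (SE, log2) for SFL1 (FDR = 1.7e-06), by 11.29 ± 0.82 for URA5 (FDR = 1.6e-08), by 9.88 ± 1.39 for SAK1 (FDR = 3.5e-05) and by 9.84 ± 1.26 for SIS2 (FDR = 1.4e-05). It exceeded the second by 8.31 ± 1.01 for RPA190 (FDR = 8.1e-06), by 8.11 ± 1.06 for BMH2 (FDR = 1.8e-05), by 3.97 ± 0.54 for QDR2 (FDR = 2.5e-05), by 3.35 ± 0.87 for HAL5 (FDR = 0.0073) and by 2.91 ± 0.52 for CKA1 (FDR = 0.00033). For MSN1 it lay below the second, at -7.87 ± 1.09 (FDR = 3.1e-05). The HAL5 change itself was 12.88 in NCYC3290 and 12.98 in YPS128, against 1.09 in BY4743 and 4.55 in BC187. The pairs thus differed for HAL5 through the strain subtracted. For SAT4 and CMK2, the other 2 of these 12, the test did not pass, which does not show that the pairs were alike. The fit pools spreads that were unequal between groups, and the cause of these differences was not tested.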

How the results depend on the processing

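The counts of 108 higher and 1288 lower genes moved with scaling and with the treatment of spread. They were 316 and 550 with TMM factors, 357 and 181 with median-ratio factors, 21 and 3786 with the total of all reads and 876 and 697 with DESeq2. They were 86 and 15 with the spread estimated per group (voom), and 275 and 660 when NCYC3290 generation 10 was rescaled to a median difference of 0, a setting chosen after seeing the data. The likelihood ratio test, dominant genes defined over the 12 libraries, all 24 libraries in the fit, no filter and a minimum of 50 normalised reads at generation 0 kept both counts within 1.5 times. Leaving out 1 library gave 79 to 226 higher and 1049 to 2264 lower genes, and the highest counts came without a generation 10 library of NCYC3290 (204 and 2094 without replicate 1, 226 and 1873 without replicate 2, 215 and 2264 without replicate 3).

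The median difference of -1.48 turned to 0.29 with TMM factors, 0.86 with median-ratio factors, 0.89 with DESeq2 and 0 on rescaling. Under the total of all reads, 10 named differences turned negative: CKA1 -0.75, CKA2 -0.85, GCD10 -1.84, POL30 -2.21, QDR1 -3.58, PTP2 -2.05, MNN1 -0.61, KTR6 -0.59, PFY1 -1.23 and NHP6A -0.73. Under it 8 more named higher genes kept their direction and lost their call (SPT16, DGK1, CHO1, CLN1, CLN3, TUB2, BMH2 and TIF5), as did HAP3. Differences that turned positive were those of SWT1 (0.75 with TMM, 1.42 with median-ratio, 1.41 with DESeq2, 0.46 on rescaling), CRZ1 (1.36, 1.70, 1.71 and 1.29), SAR1 (0.37 with median-ratio, 0.35 with DESeq2) and OAZ1 (0.18 and 0.18). That of QDR1 was -1.74 with voom. In the second pair, SFL1 was 0.11 with TMM and 0.09 with median-ratio factors, and under the total of all reads RPA190 was -1.27, QDR2 -2.07, CKA1 -3.04 and MSN1 -0.86. NHX1, OPY2, RCN2, YAP6 and HAP3 lost their call in 8 to 10 of the 12 fits that left out 1 library, and PTP2 in 2, without BY4743 generation 10 replicate 1 or NCYC3290 generation 0 replicate 3. Across these fits CRZ1 lay between -2.78 and 0.32 and QDR1 between -0.46 and 0.80.

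The strain difference in the SD of scores, 1.79, was 1.52 with a pseudocount of 5, 1.97 with TMM, 2.0 with median-ratio factors and 1.16 with all reads. That in the median score, -2.68, was -0.99, -0.43 and -5.50 under the same scalings. Same-numbered libraries of generation 0 and 10 deviated with correlations of -0.19 to 0.09. Generation 0 libraries varied little (coefficients of variation 0.0384 in BY4743 and 0.0678 in NCYC3290), so these correlations cannot decide whether the numbers pair them. With a replicate block the counts were 71 higher and 1210 lower, and QDR1 was -0.53. The block ended the calls of HAP3 (1.57), PTP2 (1.73), POL30 (1.54), PFY1 (2.16), SSK2 (-5.13) and NHX1 (-4.46), leaving 29 of 33 named higher and 43 of 45 named lower calls. At generation 10 in NCYC3290 the depth left to genes outside the dominant barcodes limits how far a loss can be measured.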
